A study of Mus musculus with 27 samples.

Results

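Ribosome biogenesis starts in the nucleolus, where RNA polymerase I copies the ribosomal DNA into a long precursor RNA. Guide RNAs in box C/D and box H/ACA particles direct its methylation and pseudouridylation, and large sets of processing factors cut and fold it into the small and the large ribosomal subunit. In the heart this pathway sets how much protein a muscle cell can make, and it is known for its activity in growing myocardium. A set of 40 genes of this pathway, chosen by name, was followed in polyadenylated RNA of C57BL/6J mouse hearts. The choice was made with earlier results of these data known. All 40 had exactly 1 row among the 57683 features of the count table. By role, 6 genes belong to RNA polymerase I and its initiation factors, 3 to the box C/D particle, 4 to the box H/ACA particle, 5 to nucleolar scaffold and chaperone proteins, 12 to small subunit processing and 10 to large subunit processing.

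The 27 libraries, each labelled as a separate heart of this inbred strain, came from 5 groups. Whole hearts were taken from 7 embryos at E13.5, of unknown sex. Titles and source names give E13.5 for all 7, while the age field differs from sample to sample and rises with the replicate number, so whether the embryos were of 1 age is not settled by the labels. Ventricular apexes were taken from 6 unoperated adults at 6 weeks and 6 unoperated adults at 16 weeks, all labelled male. Apexes also came from 4 hearts at 12 weeks of age after 4 weeks of transverse aortic constriction (TAC), an operation in which a ligature narrows the aortic arch so that the heart pumps against raised pressure, and from 4 sham-operated males at 12 weeks. Among the TAC hearts, replicate 4 is labelled female and the other 3 male. No group carries a transgene or a drug. The comparisons ask how the set differs between embryonic and adult heart, between 16 and 6 weeks of adult life, and between pressure-loaded and sham-operated heart.

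The embryonic libraries held 7543375 to 12646039 counts each. The 6-week libraries held 2092270 to 2682955, and the 16-week ones 2164604 to 2642307. Libraries of TAC hearts held 10411417 to 11846819 and those of sham hearts 7958592 to 11561952. By their labels the unoperated adults were also sequenced with a different quality score encoding, so depth and encoding cannot be told apart from the group in the embryonic comparison. In 7 libraries labelled male the 4 Y-linked genes Ddx3y, Kdm5d, Eif2s3y and Uty held 3 counts or fewer, and the TAC library labelled female held 389. These were 6-week replicates 1 and 6, 16-week replicates 1 and 6, TAC replicates 3 and 4 and sham replicates 2 and 3. All 8 cardiomyocyte markers had counts in every group. Levels are given in CPM, the count of a gene scaled to a common library total with TMM factors over all 27 libraries. A feature was called where the Benjamini-Hochberg adjusted p of edgeR's quasi-likelihood test was under 0.05. In bulk tissue, fewer cells of a type and less RNA per cell cannot be told apart.

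Of the 40 genes, 37 had enough counts to be tested at E13.5 and in TAC, and 36 in the age comparison. Nop56, Wdr75 and Rrp15 were tested nowhere. They share most of their exons with other annotated features, so that 11.42%, 31.59% and 4.51% of their exonic bases are their own, and they held 89, 29 and 1 counts over all 27 libraries. Their values therefore say nothing of the level of these RNAs. Fbl passed at E13.5 and in TAC but not in the age comparison, with 1 to 11 counts per unoperated adult library. Rrn3, Gnl3 and Tsr1 have 73.56%, 63.94% and 67.68% of their exonic bases to themselves. Whether their counts include reads from the shared stretches was not tested.

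Promoter sequence was matched to 35 members in a RefSeq table of build GRCm38.p6. The letters CACGTG, the E-box bound by MYC and MAX, were searched on both strands in the 250 bases upstream of each start, because MYC is known as an activator of this pathway. They occurred for 2 of 35 members (5.71%), Nop2 and Rrn3, against 1854 of 27025 genes (6.86%). The letters GCATGCGC of NRF1 occurred for 1 member, Nob1 (2.86%, against 2.56% of all genes). The letters AAGATGGCG of YY1 occurred for 0 members, against 0.71% of all genes. No motif contains the letters of another. The E-box windows of Nop2 and Rrn3 are shown because these genes differed in opposite directions at E13.5, Nop2 being called higher and Rrn3 lower. Capitals mark the E-box, the strand is the plus strand and both genes are read from it.
Nop2, chr6:125131793-125131858, motif starting 60 bases upstream: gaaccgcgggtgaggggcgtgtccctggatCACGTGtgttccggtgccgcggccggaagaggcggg
Rrn3, chr16:13780454-13780519, motif starting 215 bases upstream: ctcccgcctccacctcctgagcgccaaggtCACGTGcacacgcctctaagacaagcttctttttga
Rrn3, chr16:13780621-13780686, motif starting 48 bases upstream: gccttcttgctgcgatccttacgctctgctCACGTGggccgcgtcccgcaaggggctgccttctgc
The upstream bases of the members had a median GC content of 57% over 44 promoter rows, against 52.4% over all 32851 rows, and a median of 15.5 CG pairs, against 6.0. A match of letters is a description of the sequence and not of binding.

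The summed level of the 40 genes was higher at E13.5 than in unoperated adults and higher in TAC than in sham hearts. It lay between 2025.8 and 2203.9 CPM at E13.5, against 1329.0 to 1490.7 CPM at 6 weeks and 1365.6 to 1513.0 CPM at 16 weeks. It ran from 1985.4 to 2064.1 CPM in TAC hearts, against 1700.5 to 1760.3 CPM in sham hearts. No embryonic library overlapped an unoperated adult one, and no TAC library overlapped a sham one. Every sham library also lay above every unoperated adult one, and these groups differ in operation, age, depth and encoding. The ranges of E13.5 and TAC hearts overlapped, as did those of both unoperated ages. The sum weights each gene by its level, so abundant genes count most. Ncl alone had a mean of 447.6 CPM at E13.5, against 187.2 CPM in unoperated adults. Rrp12 had 133.2 CPM in TAC hearts, against 57.5 CPM in sham hearts. Levels at E13.5 and in TAC hearts compare only through the TMM factors, which were 1.36 to 1.47 at E13.5 and 0.792 to 0.858 in TAC hearts. The share of the roles differed between the groups. Scaffold and chaperone genes summed to 731 ± 25.0 CPM at E13.5 (SD, n = 7), 337 ± 24.4 at 6 weeks and 303 ± 54.6 at 16 weeks (n = 6 each), and to 528 ± 16.1 in TAC hearts, against 473 ± 13 in sham hearts (n = 4 each). Small subunit factors summed to 399 ± 7.92 CPM at E13.5, 318 ± 22.1 at 6 weeks and 338 ± 25.0 at 16 weeks, and to 487 ± 15.1 in TAC hearts, against 357 ± 7.64 in sham hearts. RNA polymerase I genes summed to 389 ± 20.2 CPM at E13.5, 343 ± 17.4 at 6 weeks and 389 ± 19.5 at 16 weeks. Their sum was 445 ± 10.3 CPM in TAC hearts, against 428 ± 22.4 in sham hearts, where the ranges overlapped.

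Of the 37 tested genes, 19 had their highest group mean at E13.5, 14 in TAC hearts, 2 at 6 weeks, 1 at 16 weeks and 1 in sham hearts. Nucleolin and nucleophosmin were among the 19, and Rrp12, Bysl, Bop1 and Gar1 among the 14. The sham group, which has the depth and encoding of the embryonic and TAC libraries, had a higher mean than both unoperated ages for 22 of the 37 genes. Whether this reflects the operation, the age or the sequencing cannot be told apart. No counts over all features are set beside these counts, so they describe the members alone.

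**Figure D1:**
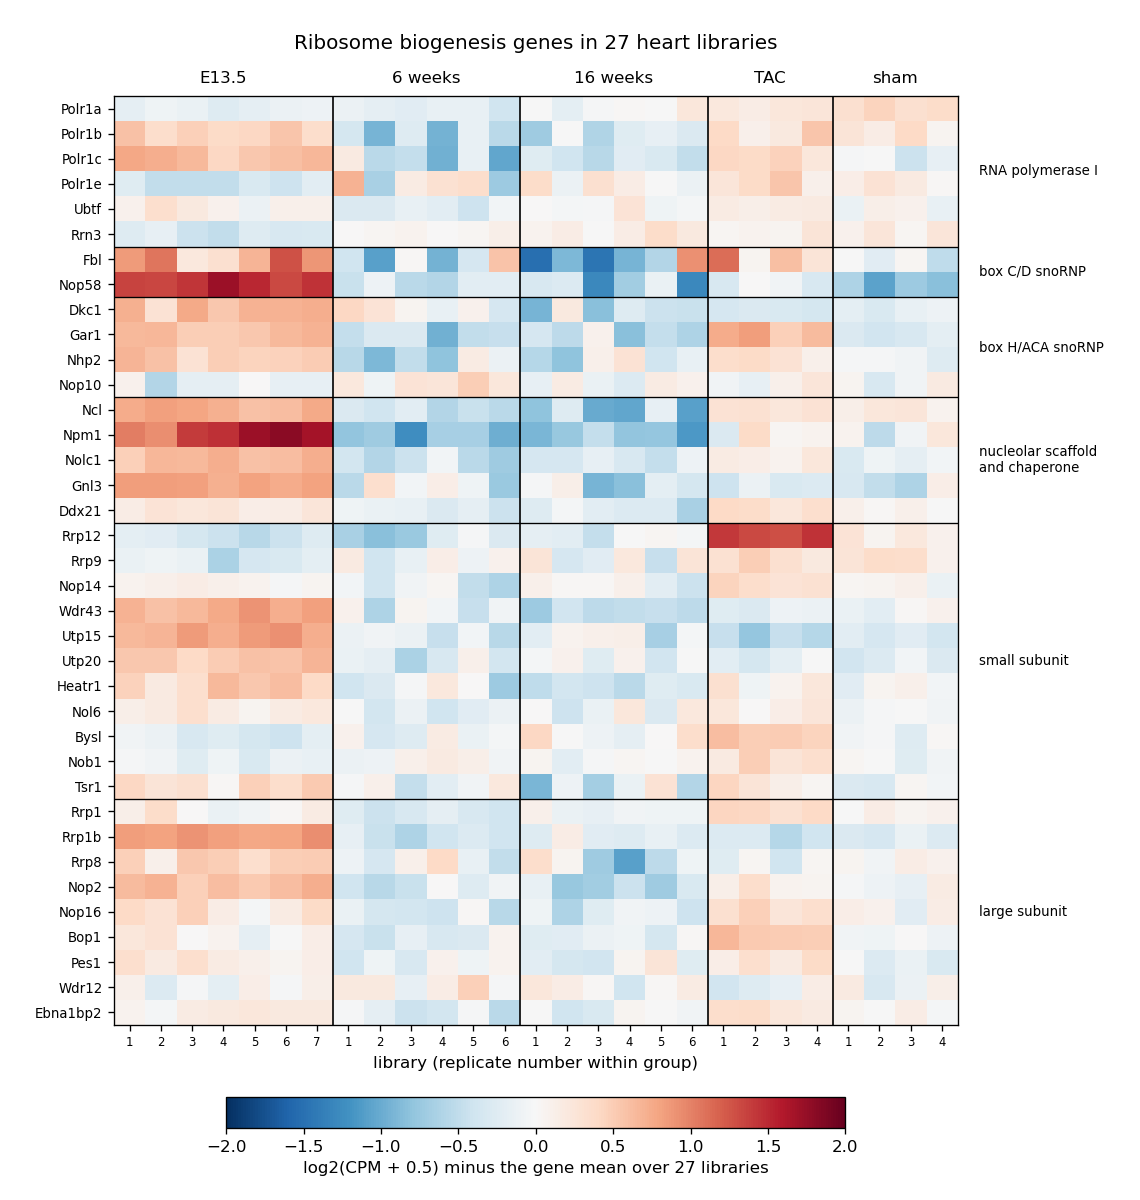
Colour gives log2(CPM + 0.5) of each of 37 members minus that gene's mean over 27 libraries, with genes in rows by role and libraries in columns by group. Colours stop at -2 and 2 on the log2 scale. Nop58 and Npm1 stand out at E13.5 and Rrp12 in TAC hearts.

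Compared per kilobase of their own exonic bases, Ncl was the most abundant member in E13.5, 6-week, TAC and sham hearts. Its mean was 187 ± 11.3 CPM per kilobase at E13.5, 85.8 ± 8.54 at 6 weeks and 70.9 ± 21.5 at 16 weeks, and 138 ± 3.06 in TAC hearts, against 128 ± 7.6 in sham hearts. Rrp1 ranked beside it, at 95.6 ± 11.5 CPM per kilobase at E13.5, 72.8 ± 4.59 at 6 weeks and 86.2 ± 5.67 at 16 weeks, and at 118 ± 4.36 in TAC hearts, against 95.2 ± 4.36 in sham hearts. At 16 weeks Rrp1 had the higher mean of the pair, with overlapping ranges. Wdr12 was the lowest tested member at E13.5 and in TAC and sham hearts, at 1.7 ± 0.195, 1.54 ± 0.274 and 1.69 ± 0.274 CPM per kilobase. Its partners in the PeBoW complex of large subunit maturation, Bop1 and Pes1, stood at 20 ± 2.17 and 11.3 ± 0.867 CPM per kilobase at E13.5. Within the box H/ACA particle, whose 4 core proteins assemble together, E13.5 levels were 28.3 ± 3.98 CPM per kilobase for Nop10, 24.4 ± 2.07 for Nhp2, 10.1 ± 0.61 for Gar1 and 6.98 ± 0.768 for Dkc1. In RNA polymerase I, the largest subunit gene Polr1a had 16.2 ± 0.644 CPM per kilobase at E13.5 and Polr1b, the second-largest, 4.93 ± 0.333. The median over the 37 genes was 12.5 CPM per kilobase at E13.5, 8.35 at 6 weeks and 7.99 at 16 weeks, and 11.9 in TAC hearts, against 9.67 in sham hearts. Fragments differ in how well they are recovered along a transcript, so these levels order genes only roughly.

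**Figure D2:**
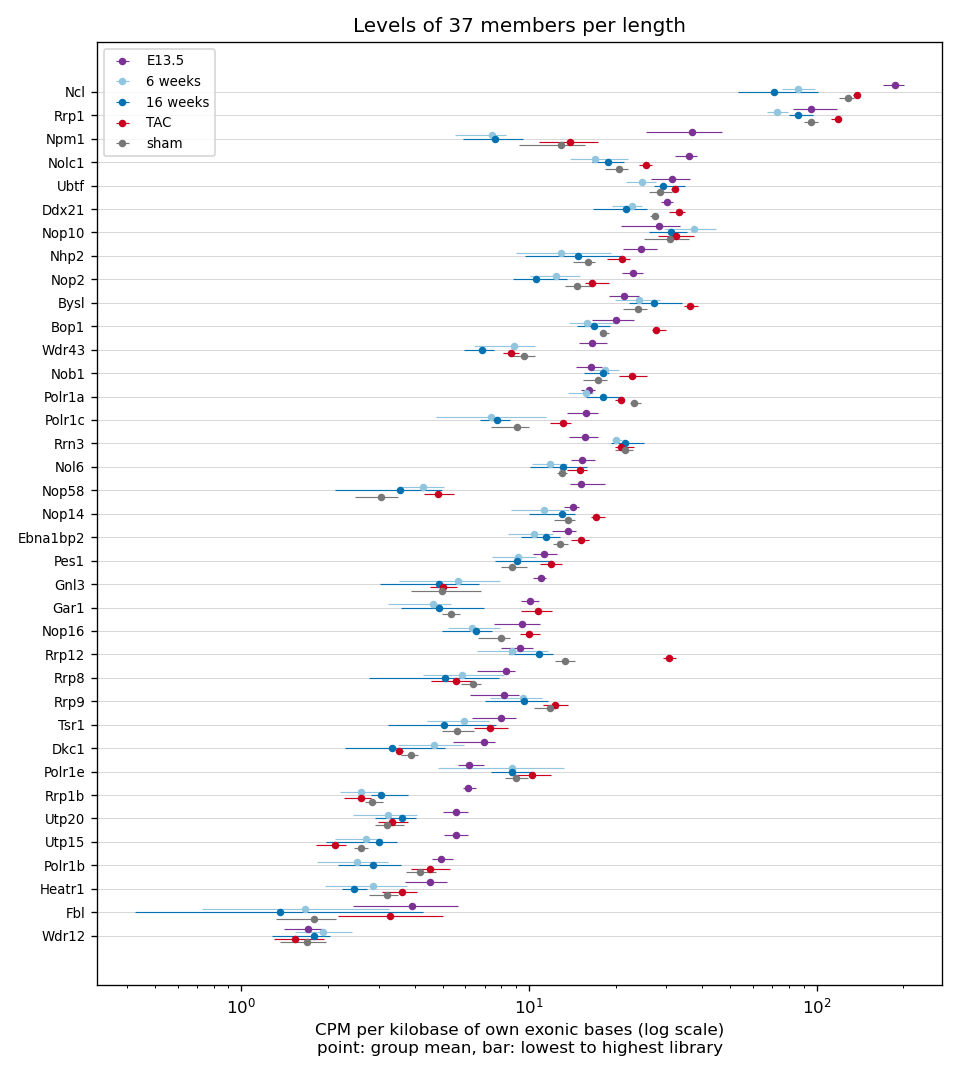
Each row is 1 of 37 members, the x axis is CPM per kilobase of own exonic bases on a log scale, points are group means and bars run from the lowest to the highest library. Ncl and Rrp1 lie far to the right of the other members in every group, and Rrp12 in TAC hearts lies at 30.7 CPM per kilobase, against 13.3 in sham hearts.

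In embryonic hearts most of the pathway was higher than in unoperated adults. Of 37 tested members, 28 were called higher, 5 lower and 4 were not called. Over all 12766 features tested, 44.1% were called higher and 39.7% lower, so calls were common in this comparison in both directions. The median log2 fold change of the members was 0.55, against 0.07 over all features. In 15 members every embryonic library was above every unoperated adult one and in 1, Rrn3, every one was below; over all features 54.7% did not overlap in 1 direction or the other. The largest changes were those of Npm1, Nop58, Fbl, Ncl and Rrp1b, at 2.29, 1.96, 1.38, 1.26 and 1.12 on the log2 scale. Of these, Fbl passed the filter through the embryonic libraries only, which favoured a higher call.

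Of the RNA polymerase I genes, Polr1c, Polr1b and Ubtf were called higher, Polr1e and Rrn3 lower, and Polr1a was not called. Polr1c, a subunit shared with RNA polymerase III, ran from 26.0 over a median of 30.7 to 33.3 CPM at E13.5, against 9.15, 14.1 and 21.9 CPM in unoperated adults. All embryonic values lay above all adult ones (log2 fold change 1.04 ± 0.10 SE, adjusted p = 1.86e-10). Polr1b changed by 0.87 ± 0.10 (adjusted p = 2.24e-09) without overlap, and Ubtf, which binds and opens the ribosomal DNA, by 0.22 ± 0.06 with overlap. Rrn3, the factor that recruits the polymerase to its promoter, ran from 36.4 over 41.5 to 45.9 CPM at E13.5, against 50.8, 53.6 and 66.4 CPM in unoperated adults. Every embryonic library was lower (log2 fold change -0.42 ± 0.06, adjusted p = 3.5e-07). Polr1e, another polymerase subunit, ran from 22.1 over 23.5 to 27.1 CPM at E13.5, against 18.8, 35.1 and 51.3 CPM in adults. Its groups overlapped, since 6-week replicates 2 and 6 lay at 19.9 and 18.8 CPM (log2 fold change -0.50 ± 0.13, adjusted p = 0.00094). Polr1a differed by -0.06 ± 0.06 (adjusted p = 0.324).

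Both tested box C/D genes were called higher. Nop58, a core protein of the particle, ran from 36.0 over 38.9 to 47.6 CPM at E13.5, against 5.48, 10.8 and 13.1 CPM in adults. The groups were far apart (log2 fold change 1.96 ± 0.11, adjusted p = 2.68e-16). Fbl, the methyltransferase fibrillarin, had 2.67 to 6.15 CPM at E13.5, against 0.466 to 4.66 CPM in adults, with overlap and few counts (1.38 ± 0.28, adjusted p = 6.26e-05). Its direction was favoured by the filter, which it passed through the embryonic libraries only. Of the box H/ACA genes, Gar1, Nhp2 and Dkc1, the pseudouridine synthase dyskerin, were called higher and Nop10 lower. Gar1 ran from 16.1 over 18.0 to 18.6 CPM at E13.5, against 5.55, 7.96 and 12.0 CPM in adults. It did not overlap (1.09 ± 0.11, adjusted p = 9.3e-11). Nop10 ran from 23.2 over 31.2 to 37.2 CPM at E13.5, against 28.8, 39.3 and 49.5 CPM in adults. Its groups overlapped widely (-0.27 ± 0.09, adjusted p = 0.00642).

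All 5 scaffold and chaperone genes were called higher, each without overlap. Npm1, the nucleolar chaperone nucleophosmin, ran from 68.0 over 98.8 to 124 CPM at E13.5, against 14.7, 20.3 and 25.4 CPM in adults. It had the largest fold change of the 37 (2.29 ± 0.12, adjusted p = 2.88e-15), and the embryonic libraries spread widely, with replicates 1 and 2 lowest at 72.2 and 68.0 CPM and replicates 5, 6 and 7 highest at 116.4, 124.4 and 113.2 CPM. The part of the age field in this spread was not tested. Ncl, nucleolin, ran from 406 over 456 to 478 CPM at E13.5, against 127, 193 and 242 CPM in adults (1.26 ± 0.10). Nolc1, a chaperone of small nucleolar RNPs, and Gnl3, nucleostemin, changed by 1.0 ± 0.07 and 1.06 ± 0.13. The helicase gene Ddx21 had the smallest change of this group, with 81.9 to 90.2 CPM at E13.5, against 47.5 to 73.1 CPM in adults (0.44 ± 0.06, adjusted p = 3.13e-07).

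Small subunit factors were divided. Of 11 tested, 7 were called higher, Rrp9 and Bysl lower, and Rrp12 and Nob1 were not called. Wdr43, a component of the early processome, ran from 30.5 over 33.9 to 38.1 CPM at E13.5, against 12.1, 14.6 and 21.5 CPM in adults. Its groups did not overlap (1.09 ± 0.09, adjusted p = 1.09e-12). The processome genes Utp15, Heatr1 and Utp20 changed by 0.95 ± 0.10, 0.76 ± 0.10 and 0.70 ± 0.08. Bysl, which acts on late small subunit precursors, ran from 31.7 over 35.9 to 40.3 CPM at E13.5, against 33.4, 41.6 and 56.9 CPM in adults. Its groups overlapped (-0.26 ± 0.08, adjusted p = 0.00558). Rrp9, a protein of the small nucleolar RNP that guides early cleavage, had 17.2 to 25.4 CPM at E13.5, against 19.5 to 32.2 CPM in adults (-0.23 ± 0.10, adjusted p = 0.0366). The lower calls of Bysl, Rrp9 and Nop10 were lost under upper-quartile scaling, at -0.14, -0.11 and -0.15 (adjusted p = 0.11, 0.295 and 0.118). That scaling gave a median over all features of 0.19 on the log2 scale, against 0.07 with TMM. Rrp9 also lost its call when any 1 of 9 of the 19 libraries was left out (adjusted p between 0.0551 and 0.117), and Bysl without the libraries that go against their sex label.

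Of 9 large subunit genes tested, 8 were called higher and Wdr12 was not called. Rrp1b ran from 44.2 over 45.8 to 49.2 CPM at E13.5, against 16.5, 21.3 and 28.6 CPM in adults. Its groups did not overlap (1.12 ± 0.07, adjusted p = 6.7e-15). Its paralog Rrp1 had 160.4 to 226.7 CPM at E13.5, against 130.3 to 187.4 CPM in adults, and changed by 0.27 ± 0.06. Nop2, a methyltransferase of large subunit rRNA, ran from 54.4 over 59.8 to 64.3 CPM at E13.5, against 22.8, 29.1 and 38.9 CPM in adults (1.0 ± 0.08). Within the PeBoW complex, Bop1 and Pes1 changed by 0.29 ± 0.08 and 0.31 ± 0.09, while Wdr12 had 6.79 to 9.13 CPM at E13.5, against 6.15 to 11.7 CPM in adults (-0.12 ± 0.12, adjusted p = 0.341).

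The sham hearts, whose depth and encoding match those of the embryonic libraries, gave fewer differences for the same genes. Against sham hearts, 20 members were called higher and 6 lower at E13.5, where 40.7% and 35.6% of 18677 features were called higher and lower. The median log2 difference of the members was 0.28, against 0.12 over all features. Nop58, Npm1, Fbl, Gnl3, Rrp1b and Utp15 had differences of 2.23, 1.42, 1.06, 1.04, 1.02 and 1.0. Rrp12 and Polr1a, not called against the unoperated adults, were lower at E13.5 than in sham hearts by log2 differences of -0.61 ± 0.08 and -0.61 ± 0.06 (adjusted p = 5.23e-07 and 6.77e-09). The other 4 called lower were Polr1e, Rrn3, Rrp9 and Bysl. Polr1b, Ubtf, Ddx21, Nop14, Rrp1, Nop16, Bop1 and Ebna1bp2 lost their calls, with Nop14 at -0.03 and Rrp1 at -0.09, and Nop10 lost its lower call at -0.22 (adjusted p = 0.084). With 16-week hearts alone as the reference, 24 members were called higher, where 40.8% of 16404 features were, and Ubtf, Nop14, Nol6 and Rrp1 were not called.

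Markers of several tissue compartments moved with the embryonic group. Of the cardiomyocyte markers, 8 of 8 were called lower, with a summed level of 21404 to 28360 CPM at E13.5, against 106050 to 129774 CPM in unoperated adults of both ages. All 8 epicardial markers were called higher (273 to 346 CPM, against 11.7 to 27.9), and 6 of 7 tested atrial markers (2563 to 3462 CPM, against 769 to 1145), with Bmp10 at 0 in unoperated adults. Sln has 0 exonic bases of its own in the annotation, so its count of 0 says nothing of its level. All 6 tested erythroid markers were higher (10382 to 40354 CPM, against 30.6 to 87.3), and Hbb-y, Hba-x and Hbb-bh1 had no count in unoperated adults. Between 16 and 6 weeks only 2 epicardial, 3 atrial and 1 erythroid markers had enough counts to be tested. The other tested markers of these 3 lists passed the filter at E13.5 through the embryonic libraries, so their higher calls were largely set by the filter. All 8 macrophage markers were lower (113 to 160 CPM, against 240 to 375). The remaining lists were mixed. Endothelial markers had 2 called higher and 4 lower of 7 tested, fibroblast markers 5 and 3 of 8, and smooth muscle markers 3 and 4 of 7. The part of all these markers in the differences of the ribosome biogenesis genes was not tested.

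Between 16 and 6 weeks no member was called by edgeR, and 0 were called by DESeq2 and by limma-voom. In this comparison 1.32% of 10394 features were called higher and 1.19% lower. At an unadjusted p under 0.05 there were 7 of 36 members, where 1755 of all 10394 features were. The members' median log2 fold change was 0.03, against -0.01 over all features. Rrp1 was the member whose groups did not overlap, where 2.04% of all features did not. It ran from 155.4 over 165.2 to 187.4 CPM at 16 weeks, against 130.3, 140.5 and 154.1 CPM at 6 weeks (0.23 ± 0.07, adjusted p = 0.0884). Dkc1, an X-linked gene, had the most negative difference, with 9.32 to 20.8 CPM at 16 weeks, against 14.2 to 24.3 CPM at 6 weeks (-0.51 ± 0.18, adjusted p = 0.143). Without 16-week replicate 2 it would be called, at -0.67 ± 0.18 (adjusted p = 0.046), and without the libraries that go against their sex label it stood at -0.36 ± 0.21 (adjusted p = 0.472).

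Other extremes of the roles lay within overlapping ranges. Rrp12 had the largest positive difference, 36.9 to 52.7 CPM at 16 weeks against 28.6 to 50.4 CPM at 6 weeks (0.29 ± 0.13, adjusted p = 0.265). Wdr43 had 12.1 to 15.5 CPM at 16 weeks, against 13.1 to 21.5 CPM at 6 weeks (-0.38 ± 0.16, adjusted p = 0.212). Ncl had 127 to 242 CPM at 16 weeks, against 181 to 235 CPM at 6 weeks (-0.29 ± 0.17, adjusted p = 0.434). Ubtf had 140.3 to 179.2 CPM at 16 weeks, against 111.6 to 142.8 CPM at 6 weeks (0.23 ± 0.08, adjusted p = 0.121). For Nop58, Nhp2, Nolc1, Polr1e and Nop2 the differences were -0.29, 0.19, 0.14, -0.03 and -0.23, with adjusted p between 0.407 and 0.967. Low members such as Gar1 rested on 12 to 24 counts per library, while Ncl and Rrp1, with 270 to 558 and 261 to 402 counts, were not called either.

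In pressure-loaded hearts 16 of 37 members were called higher and Polr1a was called lower. Over all 14555 features tested, 19.6% were called higher and 18.4% lower. The members' median log2 fold change was 0.14, against 0.00 over all features, and 20 members were not called. In 14 members every TAC library was above every sham one, and in 3 (Polr1a, Dkc1 and Utp15) every one was below, where 35.5% of all features did not overlap. The largest changes were those of Rrp12 and Gar1, at 2.25-fold and 1.96-fold.

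Of the small subunit factors, 5 of 11 were called higher and none lower. Rrp12, which is needed to mature and export ribosomal subunits, had 137, 129, 126 and 140.4 CPM in TAC hearts, against 62.4, 53.4, 59.7 and 54.5 CPM in sham hearts. The lowest TAC heart lay above 2 times the highest sham heart (log2 fold change 1.17 ± 0.07, adjusted p = 5.39e-08). Its TAC mean, 133 ± 6.67 CPM (SD, n = 4), was also above every library at E13.5, where the highest was 44.7 CPM. Every sham library, the lowest at 53.4 CPM, was above the E13.5 libraries as well. Bysl had 64.9, 60.0, 60.2 and 58.0 CPM in TAC hearts, against 40.1, 41.7, 35.5 and 42.9 CPM in sham hearts, with no overlap (0.56 ± 0.08, adjusted p = 5.44e-05). Nob1, the nuclease of the last cut in small subunit rRNA, Tsr1 and Nop14 were called at 0.35 ± 0.09, 0.34 ± 0.12 and 0.29 ± 0.08. Tsr1 lost its call without TAC replicate 1 or 2 or sham replicate 1 or 2 (adjusted p between 0.0629 and 0.129). Utp15 had 9.26, 7.37, 9.35 and 8.60 CPM in TAC hearts, against 11.2, 10.2, 11 and 10 CPM in sham hearts. Its TAC values were all below the sham values without a call (-0.33 ± 0.13, adjusted p = 0.0584).

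Of the box H/ACA genes, Gar1 and Nhp2 were called higher and Dkc1 and Nop10 were not called. Gar1 had 19.2, 20.6, 16.0 and 17.8 CPM in TAC hearts, against 9.20, 8.52, 8.96 and 9.82 CPM in sham hearts. Every TAC heart was above every sham heart (0.97 ± 0.12, adjusted p = 2.19e-05), and the TAC mean of 18.4 ± 1.97 CPM lay beside that of 17.4 ± 1.05 CPM at E13.5. Dkc1 had 14.3, 14.8, 14.5 and 14.1 CPM in TAC hearts, against 15.7, 14.6, 16.2 and 16.8 CPM in sham hearts (-0.18 ± 0.11, adjusted p = 0.204). On the scale of the fit over TAC and sham hearts alone its groups did not overlap, while these CPM overlap slightly. Both tested box C/D genes were called higher. Nop58 had 11.3, 14.2, 13.4 and 11.2 CPM in TAC hearts, against 9.09, 6.45, 8.35 and 7.67 CPM in sham hearts (0.63 ± 0.15, adjusted p = 0.00339). Fbl had 5.47, 2.35, 3.65 and 2.79 CPM in TAC hearts, against 2.22, 1.84, 2.32 and 1.43 CPM in sham hearts (0.84 ± 0.29, adjusted p = 0.0296). Fbl rested on 14 to 49 counts per library and lost its call without TAC replicate 1 or 3 or sham replicate 2 or 4 (adjusted p between 0.0534 and 0.135). Nhp2 changed by 0.35 ± 0.10 and lost its call without sham replicate 4 (adjusted p = 0.0596).

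Of the RNA polymerase I genes, Polr1c was called higher and Polr1a lower. Polr1c had 25.9, 25.4, 26.9 and 22.8 CPM in TAC hearts, against 19.0, 19.2, 14.2 and 17.3 CPM in sham hearts. The groups did not overlap (0.49 ± 0.11, adjusted p = 0.00251). Polr1a had 133, 127, 134 and 135 CPM in TAC hearts, against 143, 156, 143 and 147.5 CPM in sham hearts. All TAC values were lower (-0.20 ± 0.06, adjusted p = 0.0205), but without TAC replicate 1 or TAC replicate 2 the call was lost (adjusted p = 0.0512 and 0.0604). Rrn3, Ubtf, Polr1b and Polr1e differed by -0.09, 0.13, 0.07 and 0.14 with overlapping values.

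Of the 5 scaffold and chaperone genes, all called higher in the embryo, 2 were called higher here. Ncl differed by 0.07 ± 0.06, Npm1 by 0.07 ± 0.18 and Gnl3 by -0.04 ± 0.19, none of them called. Gnl3 had 5.25, 6.51, 5.70 and 5.81 CPM in TAC hearts, against 5.65, 4.95, 4.48 and 7.88 CPM in sham hearts. Nolc1 and Ddx21 were called higher. Nolc1 had 62.2, 60.9, 58.1 and 64.7 CPM in TAC hearts, against 44.5, 52.0, 48.8 and 53.1 CPM in sham hearts (0.27 ± 0.08, adjusted p = 0.011). Ddx21 changed by 0.24 ± 0.07, also without overlap.

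Of the large subunit genes, 4 of 9 were called higher: Bop1, Pes1, Rrp1 and Ebna1bp2. Bop1 had 65.5, 59.6, 58.6 and 58.5 CPM in TAC hearts, against 39.2, 38.8, 41.7 and 38.6 CPM in sham hearts. The groups lay well apart (0.57 ± 0.07, adjusted p = 2.37e-05). Pes1 and Rrp1 changed by 0.41 ± 0.10 and 0.27 ± 0.06, without overlap. Ebna1bp2 changed by 0.21 ± 0.08 (adjusted p = 0.0494) and lost its call when any 1 of 6 of the 8 libraries was left out, TAC replicate 4 and sham replicate 3 being the exceptions (adjusted p between 0.0562 and 0.137). Wdr12, the remaining PeBoW gene, differed by -0.18 ± 0.17 (adjusted p = 0.42). Rrp8, an rRNA methyltransferase, had 14, 17.1, 12.5 and 17.2 CPM in TAC hearts, against 17.3, 15.8, 18.5 and 17.8 CPM in sham hearts, with overlap (-0.23 ± 0.12, adjusted p = 0.148).

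**Figure D3:**
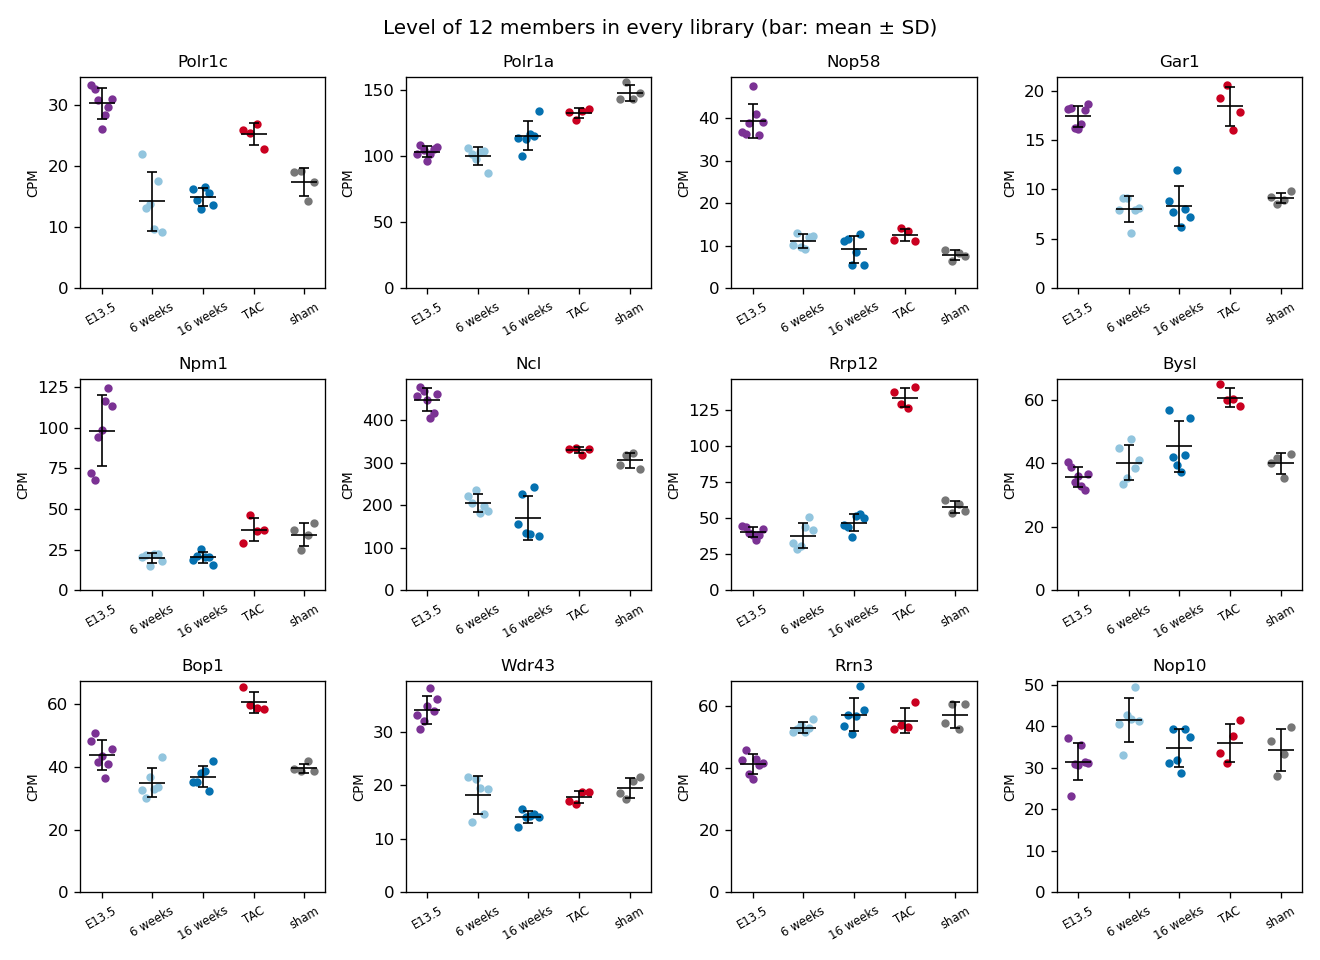
The 12 panels give the CPM of selected members in every library by group, with a line at the mean and bars of 1 SD. Rrp12 reaches 126 to 140.4 CPM in TAC hearts, against 53.4 to 62.4 CPM in sham hearts, while Npm1 and Nop58 are highest at E13.5 and Rrn3 is lowest there.

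Some cell type markers moved with TAC. Of 8 fibroblast markers 5 were called higher and 0 lower, with summed levels of 2459 to 4844 CPM in TAC hearts, against 1214 to 1366 CPM in sham hearts. Of 8 macrophage markers 4 were called higher (503 to 700.1 CPM, against 376 to 411). Of 8 cardiomyocyte markers 2 were higher and 4 lower, with overlapping sums of 131974 to 153969 CPM in TAC hearts and 146675 to 173980 CPM in sham hearts. Of 5 tested atrial markers 3 were called higher (Dkk3, Myl4 and Pam), with summed levels of 1219 to 1471 CPM in TAC hearts, against 694 to 817 CPM in sham hearts. Of 7 smooth muscle markers Des and Cnn1 were called higher, Rgs5 was called lower and 4 were not called. The 4 were Myh11, Acta2, Smtn and Tagln, at 0.02, -0.08, -0.05 and 0.40. Their list summed to 8472 to 9559 CPM in TAC hearts, against 5257 to 5766 CPM in sham hearts. Such a sum weights each gene by its level. Des, at 0.88, is also a gene of cardiomyocytes, so this sum is not read as an amount of smooth muscle. Of 7 tested endothelial markers 1 was higher and 1 lower, of 3 tested epicardial markers 1 was higher, and of 3 tested erythroid markers none was called by edgeR, with 1 at an unadjusted p under 0.05. Mitochondrial counts made up 1.35% to 1.95% of TAC libraries and 1.77% to 6.44% of sham libraries. Their part in the members' differences was not tested. With the libraries that go against their sex label left out, 15 members were called higher. Rrp12, Gar1, Bop1 and Bysl stood at 1.14, 1.02, 0.64 and 0.54 there, with adjusted p between 1.09e-06 and 0.000797, while Fbl and Nob1 were not called (adjusted p = 0.066 and 0.062). Polr1a, the member called lower, was not called there either (-0.20 ± 0.08, adjusted p = 0.0508).

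The embryonic and the TAC comparison share no library, so their calls can be set side by side. Of the 16 members called higher in TAC hearts, 13 were called higher at E13.5, Bysl was called lower, and Rrp12 and Nob1 were not called. Among all 2642 features called higher in TAC hearts and tested in both comparisons, 45.5% were called higher at E13.5 and 39.9% lower. Of the 20 members not called in TAC hearts, 15 were called higher and 4 lower at E13.5, so the 13 of 16 are read beside 28 of 37 for the members as a whole. No test was made of this count. The genes with the largest change in each comparison differ. Rrp12 had 1.17 in TAC and -0.06 at E13.5, whereas Npm1 had 0.07 in TAC and 2.29 at E13.5, and Gar1 had 0.97 in TAC and 1.09 at E13.5. For 17 of the 37 members the TAC mean was above the E13.5 mean, a description across groups that also differ in tissue and age. This count also rests on the TMM scaling between the groups, and no count over all features is set beside it.

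**Figure D4:**
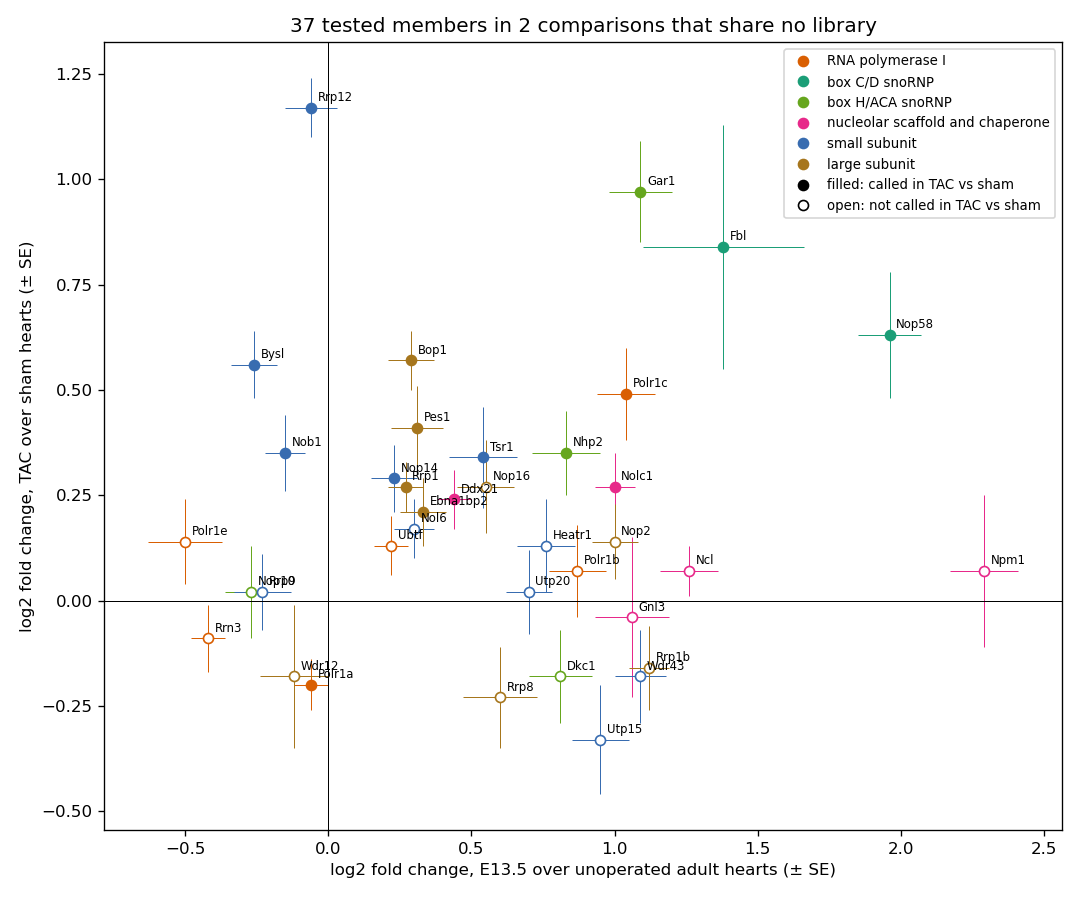
Each point is 1 of 37 members, with its log2 fold change at E13.5 over unoperated adults on the x axis, that in TAC over sham hearts on the y axis, bars of 1 SE, colours for roles and filled points for members called in TAC. Rrp12 stands alone at the top near 0 on the x axis, Npm1 far right near 0 on the y axis, and Gar1, Fbl and Nop58 lie at the upper right.

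Other genes of the pathway were read from lists of textbook factors, drawn up with earlier results of these data known. In 5 lists of 124 further ribosome biogenesis genes (polymerase I machinery, small subunit factors, large subunit factors, assembly factors of small nucleolar RNPs and the RNA exosome), 119 had 1 row. Wdr36, Nop9, Tsr3 and Noc2l were not analysed here, and Rsl24d1 was left out for having 2 rows. At E13.5, 70 of 106 tested were called higher and 16 lower, with a median log2 fold change of 0.40, against 44.1% higher, 39.7% lower and a median of 0.07 over all features. In the age comparison 0 of 97 were called by edgeR, with 14 at an unadjusted p under 0.05, where 1755 of all 10394 features were. In TAC hearts 31 of 107 were called higher and 3 lower, with a median of 0.18, against 19.6% higher, 18.4% lower and a median of 0.00 over all features.

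Within these lists at E13.5, Tcof1, the polymerase I cofactor treacle, was called higher by 0.94, and Polr1d, the partner of Polr1c, lower by -0.86. Ppan, a large subunit factor, was higher by 1.64, with 36.8 ± 3.4 CPM at E13.5 (n = 7) against 11.8 ± 3.28 CPM in unoperated adults (n = 12), and the helicase gene Ddx24 was lower by -0.94. Tgs1, which adds methyl groups to the cap of some small nucleolar RNAs, was higher by 1.82 at a low level of 8.32 CPM. Dis3, a nuclease of the exosome, was higher by 1.70 at a low level of 4.86 CPM. Rcl1 was higher by 0.98, and Pno1, Znhit6 and Exosc4 were lower by -0.51, -0.37 and -0.41. In TAC hearts Dhx37, a helicase of the small subunit processome, was higher by 0.76, with 83.8 ± 11.8 CPM, against 47.9 ± 6.02 CPM in sham hearts (n = 4 each). Znhit6, which assembles box C/D particles, was higher by 0.68, Ppan by 0.63, Exosc7 by 0.45 and Cd3eap, a polymerase I subunit, by 0.40. Baz2a, the scaffold of a complex that silences ribosomal DNA, was lower by -0.28, with 169 ± 4.03 CPM in TAC hearts against 199.5 ± 1.78 CPM in sham hearts. Krr1 and Gnl3l were lower by -0.46 and -0.42.

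The MYC and MAX network, which regulates this pathway, had 5 genes called higher and 4 lower of 10 tested at E13.5, shares near the 44.1% and 39.7% of all features. Mycn had 33.9 ± 5.12 CPM at E13.5, against 3.4 ± 1.75 CPM in unoperated adults, and Myc had 37 ± 5.58 CPM, against 4.74 ± 1.41 CPM, with log2 fold changes of 3.33 and 2.96. The antagonist and partner genes Mxd1, Mga and Mnt were higher by 1.08, 0.75 and 0.36, Mlxip, Mxi1, Mxd4 and Mlx were lower by -0.99, -0.34, -0.31 and -0.31, and Max was not called at -0.12. None of 9 tested was called between 16 and 6 weeks by edgeR, with Mga at an unadjusted p of 0.0058. In TAC hearts Mga, Mlxip and Max were called lower by -0.59, -0.58 and -0.33. Myc had 15.8 ± 3.41 CPM in TAC hearts, against 9.94 ± 7.87 CPM in sham hearts, and was not called (0.69 ± 0.49, adjusted p = 0.324). Mycn, Mxd1, Mxd4, Mxi1, Mnt and Mlx lay between -0.53 and 0.05 without a call.

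RNA polymerase III genes, which make the remaining rRNA and tRNAs, had 8 higher and 4 lower of 18 at E13.5 and 3 higher and 1 lower of 18 in TAC hearts. The shares called higher are near or below those of all features (44.1% at E13.5 and 19.6% in TAC hearts). Polr3g was higher by 1.62 at E13.5 and by 0.54 in TAC hearts. Maf1, the repressor of this polymerase, was lower by -1.03 at E13.5, and Gtf3c2 lower by -0.37 in TAC hearts. Among muscle or paralogous forms, Rpl3l, the muscle form of a large subunit protein, had 0.404 ± 0.336 CPM at E13.5, against 351 ± 25.2 CPM in unoperated adults. It was lower in TAC hearts too, at 179.9 ± 10.9 CPM against 255 ± 5.43 CPM in sham hearts, a log2 fold change of -0.54. Npm3 was higher at E13.5 by 0.83 and was not called in TAC (0.53, adjusted p = 0.0792). Npm2 had too few counts to be tested, and Fbll1 has 0 exonic bases of its own. Of 15 tested cell cycle genes all 15 were called higher at E13.5, with summed levels of 1483 to 1714 CPM, against 44.0 to 83.9 CPM in unoperated adults. Between 16 and 6 weeks only 4 of the list had enough counts to be tested. The others passed the filter at E13.5 through the embryonic libraries, so their direction was largely set by the filter. In TAC hearts 1 of 12 was called higher, Mcm2, by 0.76.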

How the data were processed

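The authors deposited raw counts per feature. The submitters' processing notes name Bowtie, TopHat 1.3.0, HTSeq, DESeq and edgeR and the build mm9 (NCBIM37), without their roles. The labels describe poly-A selection and single-end sequencing without strand. The counting mode is not given in the sources used here. Without strand, reads of overlapping antisense genes cannot be told apart. The 40 members and all lists were chosen with earlier results of these data known.

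Low features were removed within each comparison (filterByExpr, with a smallest count of 10 and a smallest sum of 15). A feature low in adults could pass at E13.5 through the embryonic libraries alone, which favours a higher call. TMM factors scaled the rest for edgeR 4.0.16's quasi-likelihood test, run with robust dispersions in R 4.3.3. Calls used a Benjamini-Hochberg adjusted p under 0.05 over all features tested. The contrasts were E13.5 minus the average of the unoperated ages, 16 minus 6 weeks and TAC minus sham. SEs were derived from each fold change and its F statistic. Nothing shows that hearts of a group came from separate litters or surgeries, so p-values measure the spread between these hearts. The tests were checked on simulated counts. Tables used Python 3.11.15. Named genes were, per role and comparison, those with the largest and smallest fold change and those called against the majority; per pathway list, the extreme called genes. Ccnb1, without counts in unoperated adults, was left without a fold change. The E-box windows shown fall outside the rule set for sequences, which selected none. The settings changed in turn were the scaling (RLE, upper quartile), the tool (DESeq2 1.42.0, limma-voom of limma 3.58.1), no filter, a filter of 1 CPM, mitochondrial features left out, other reference groups, thinning, 1 fit over all groups, a replicate block, and libraries left out. The fit to the block's libraries without the block was added after seeing the data. Library totals set the precision of low genes.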

Additional observations from a re-analysis of the deposited data

Results flagged for a closer look

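In 183 sets of 1 member in 1 group, with a mean of at least 10 counts, 8 held a library far from the others, where chance flags about 1 set in 20. In 16-week hearts these were Ubtf in replicate 4 (179.2 CPM, the others 140.3 to 149.1), Nob1 in replicate 2 (25.7, the others 29.4 to 31.4), Rrp1 in replicate 1 (187.4, the others 155.4 to 167.4) and Rrp1b in replicate 2 (28.6, the others 21.2 to 23.0). In 6-week hearts Gar1 was low in replicate 4 (5.55, the others 7.91 to 9.17). In TAC hearts Rrn3 was high in replicate 4, the library labelled female (61.2, the others 52.5 to 53.8), Ncl was low in replicate 3 (318.4, the others 331.6 to 333.9) and Bop1 was high in replicate 1 (65.5, the others 58.5 to 59.6).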

How the results depend on the processing

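At E13.5, members called higher numbered 28 with each library left out in turn, and those called lower 4 to 6, while 5457 to 5766 features were higher and 4941 to 5118 lower. Members called lower there numbered 2 under upper-quartile scaling, 2 with no filter, 3 without libraries against their sex label and 3 against 6-week hearts alone. Against 16-week hearts alone 24 members were higher. With the E13.5 libraries thinned to adult depth, the members' median log2 fold change was 0.53, against 0.04 over all features. Nop14 lost its higher call and Nop10 its lower call there. With no filter 12197 features were higher at E13.5. Against sham hearts Nop14 and Rrp1 turned to -0.03 and -0.09. Between ages, libraries left out in turn gave 51 to 207 features higher, 56 to 165 lower and 0 to 1 members lower. No filter gave 219 higher and 289 lower, and leaving out libraries against their sex label 74 and 64. In TAC hearts, libraries left out in turn gave 2368 to 2840 features higher, 2153 to 2729 lower, 13 to 16 members higher and 0 to 1 lower. Members called lower in TAC were 2 under upper-quartile scaling and limma-voom, and 0 with no filter and in 1 fit over all 5 groups. Replicate numbers did not pair the samples: same-numbered libraries had correlations of -0.13 to 0.15. With the replicate block, over 6 TAC and sham libraries, 7 members were higher, 0 lower and 1767 features lower; the same libraries without the block gave 12 and 0. Members higher in both numbered 5 under the block. Members higher in TAC and lower at E13.5 were 0 under upper-quartile scaling, with no filter and without libraries against their sex label, and 2 with limma-voom and with the 1 CPM filter. With all exonic bases as length, the median level was 11 CPM per kilobase at E13.5 and 9.36 in sham hearts. Where no cause is given, the cause was not tested. Low members rest on few counts in unoperated adults.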
